A study of Mus musculus with 3 samples.

Results

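Deletion of Skida1 in blood progenitors that carry the leukemia fusion MLL-ENL was followed lineage by lineage, by comparing 1 Skida1-deleted MLL-ENL library with 1 MLL-ENL library of neonatal mouse liver. Cells were used when they held at least 5000 unique molecular identifiers (UMIs) of genes and under 10% mitochondrial UMIs. They were split by the summed UMIs of lineage genes per 10000 gene UMIs. Erythroid cells reached 5 for Klf1, Ermap, Rhd and Rhag, granulocyte cells reached 40 for Mpo, Elane, Prtn3 and Ctsg, megakaryocyte cells reached 4 for Pf4, Itga2b and Gp1bb, and the remainder reached none of these. Cells that met 2 of the cuts were dropped, 39 of MLL-ENL and 18 of the Skida1-deleted library. The comparison held 17920 of the 28544 barcodes of the study, 8749 from MLL-ENL and 9171 from the Skida1-deleted library. Of 32285 genes, 25571 were matched to an autosome, and 4274 of these were measured in all 4 cell groups.

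The study measured RNA and surface proteins of single cells together (CITE-seq). The cells were lineage-negative and KIT-positive, from the liver on postnatal day 0. It had 3 groups of 1 library each: Control, MLL-ENL without a Skida1 deletion, and Skida1-deleted MLL-ENL. The day, tissue and sort were shared by all 3, and both fusion groups carry MLL-ENL. None of the sources used here gives the promoter or Cre line behind the fusion and the deletion, the deleted part of Skida1, or the number of animals in a library. Control was used only as a level beside the 2 fusion libraries. With 1 library per group no test between groups was possible, so no p-value is given and no difference has a replicate check. Square brackets give 95% intervals, exact Poisson for a level and exact conditional binomial for a fold, and they cover counting error only.

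The fusion of MLL, a histone methyltransferase that maintains Hox gene expression, with ENL, a reader of acetylated histones in the elongation machinery, is known to keep target genes active and to cause leukemia in infants. Skida1 encodes a nuclear protein linked to Polycomb complexes and is itself a gene that MLL fusions activate. The KIT-positive gate of the neonatal liver holds multipotent progenitors together with early cells of the erythroid, granulocyte and megakaryocyte lineages, so a difference between libraries can be shared by the gate or belong to one lineage.

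UMIs were summed over the cells of each group and library and scaled to the same total of gene UMIs, as CPM. Values of 3 libraries are given in the order Control, MLL-ENL, Skida1-deleted, and values of 4 cell groups in the order erythroid, granulocyte, megakaryocyte, remaining cells. A gene counted as measured in a group when it reached 20 CPM in either fusion library and 100 UMIs over both. It counted as different when the ratio of (CPM + 1) between the Skida1-deleted and the MLL-ENL library was at least 1.5-fold either way. The erythroid group held 3584 and 3261 cells (MLL-ENL, Skida1-deleted), the granulocyte group 524 and 653, the megakaryocyte group 264 and 349, and the group with none of these 4377 and 4908. Of the 2 fusion libraries, the smallest sum was the megakaryocyte group of MLL-ENL with 4074677 gene UMIs and the largest the erythroid group of the Skida1-deleted library with 106551294. Median depth per cell was 30519 and 30463 UMIs in erythroid cells (MLL-ENL, Skida1-deleted), 16252 and 14503 in granulocyte, 14132.5 and 12816 in megakaryocyte, and 13548 and 13643.5 in the remaining cells. The 4 comparisons use the same pair of libraries and are not independent of each other. Kept cells of the 2 libraries shared 17 barcodes.

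The erythroid cut passed through a continuum of cells, and the groups matched their markers as the rule fixes. The erythroid genes summed to 7.93 and 7.64 UMIs per 10000 in erythroid cells (MLL-ENL, Skida1-deleted) and still to 2.17 and 2.06 in cells with none of these. Between 4 and 6.25 on the erythroid sum lay 1536 and 1503 cells. KIT itself, read by its antibody tag CD117, had median counts per cell of 545 and 597 in erythroid, 474.5 and 471 in granulocyte, 218.5 and 233 in megakaryocyte and 383 and 382 in the remaining cells. Lists of hepatocyte, macrophage, endothelial, stromal, B cell and T or NK cell markers each summed to between 0.0235 and 2.33 UMIs per 10000 in the fusion libraries. Median mitochondrial shares were 4.41% and 4.15%, 4.77% and 4.16%, 4.70% and 4.13%, and 4.93% and 4.35% (MLL-ENL, Skida1-deleted) in the 4 groups, lower in the deleted library in each. The libraries also differed in sex. The Y-linked gene Ddx3y had 0 UMIs in Control and MLL-ENL and 57.2 CPM in the deleted library, and Xist stood at 1048 CPM in MLL-ENL and 1.89 CPM there. Sex, preparation and genotype therefore cannot be told apart, and sex-linked genes were left out.

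Skida1 itself (ENSMUSG00000054074, chr2:18044087-18048449, GRCm38.p6) was present at a low level in every lineage of MLL-ENL and lower in every lineage of the Skida1-deleted library. In erythroid cells it had 17, 233 and 22 UMIs (Control, MLL-ENL, Skida1-deleted), which is 0.132, 2.20 and 0.206 CPM and 10.7-fold [6.88–17.4] lower in the deleted library than in MLL-ENL. Cells with none of these had 23, 570 and 65 UMIs, which is 0.702, 8.16 and 0.805 CPM and 10.1-fold [7.83–13.3] lower. Granulocyte cells had 1, 59 and 3 UMIs, which is 23.1-fold [7.52–115] lower, and megakaryocyte cells had 1, 42 and 5 UMIs, which is 10.8-fold [4.26–34.9] lower. The deleted library thus lay below MLL-ENL in all 4 groups with intervals of the fold that exclude 1, and the intervals of its levels overlapped those of Control in all 4. The gene stayed under 20 CPM everywhere and entered none of the classes below. Since the deleted part is unknown here, a 3' tag may or may not report the deletion. Around it, 11 genes within 5000000 bases were measured in all 4 groups and 0 passed the 1.5-fold limit in any group, with a largest log2 ratio of 0.50 in size.

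**Figure D1:**
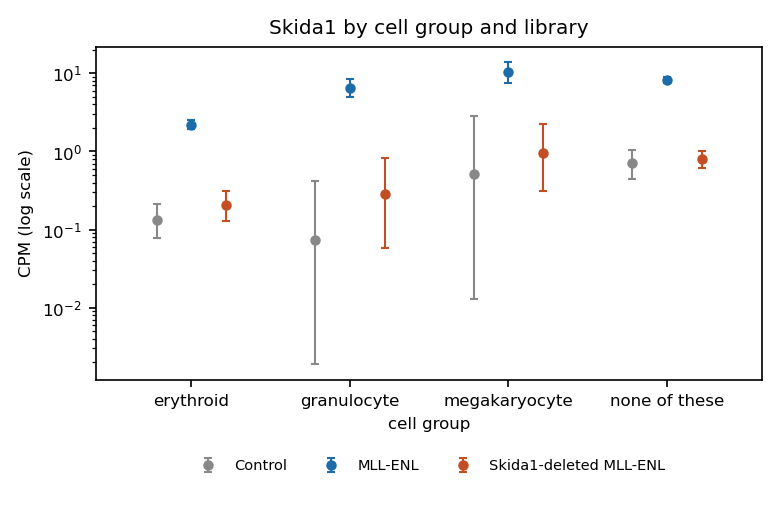
Skida1 level in CPM (log axis) in each cell group, with Control in gray, MLL-ENL in blue and the Skida1-deleted library in orange. Points are 1 library each and bars are exact 95% Poisson intervals. MLL-ENL lies highest in all 4 groups, between 2.20 and 10.3 CPM, and the Skida1-deleted library lies at 0.206 to 0.958.

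Few genes differed. In erythroid cells 43 genes were higher (0.869%) and 27 lower (0.545%) in the Skida1-deleted library, 1.41% of 4950 measured. In granulocyte cells 77 were higher (1.46%) and 41 lower (0.776%), 2.23% of 5284. In megakaryocyte cells 92 were higher (1.68%) and 55 lower (1.01%), 2.69% of 5470. In cells with none of these 58 were higher (1.09%) and 23 lower (0.433%), 1.52% of 5312. With log2 ratios centred on the median of measured genes, the splits were 51 higher and 20 lower in erythroid and 101 and 26 in granulocyte cells. With globin, mitochondrial and ribosomal protein genes left out of the scaling, the split in cells with none of these was 65 and 44. The median log2 ratio of all measured genes lay at −0.04, −0.06, −0.02 and −0.01 in the 4 groups. The group with the most genes past the limit was also the one with the fewest UMIs.

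With the limits used here, the genes that differed in every lineage outnumbered those that differed in 1 lineage only. Of the 4274 genes measured in all 4 groups, 29 were at least 1.5-fold higher in each (0.679%) and 8 at least 1.5-fold lower in each (0.187%), together 37 (0.866%). A further 8 genes (0.187%) passed the limit in 1 group while staying under 1.2-fold in the other 3. Of these, 1 was in the granulocyte group (0.0234%), 7 were in the megakaryocyte group (0.164%) and 0 were in either of the others. The erythroid group and the remaining cells adjoin at the erythroid cut, and the megakaryocyte group held the fewest UMIs. The part of the split and of depth in these counts was not tested. No gene was past the limit in opposite directions in 2 groups. Past the limit in at least 1 group were 145 genes (3.39%). Among the genes past the limit upward, 55 were so in exactly 1 group, 6 in 2, 10 in 3 and 29 in 4, and among those past it downward 26, 5, 6 and 8. The other genes past the limit in exactly 1 group were at least 1.2-fold different, either way, in another group. Without that 1.2-fold ceiling, genes past the limit in exactly 1 group outnumbered those past it in all 4, in both directions. The order of the all-lineage and one-lineage classes turned under some alternatives. With cells thinned to 5000 UMIs, 32 genes were past the limit in all 4 groups and 36 in megakaryocyte cells only. From 5 CPM and 30 UMIs the same counts were 46 and 92, and below the median G2M sum 35 and 42. At a fold limit of 1.3 they were 125 and 119, with 47 more in granulocyte cells only. The members just inside the all-group limit were Cebpz and Brd9, with smallest log2 ratios of 0.587 and 0.62 against a limit of 0.58496. Just outside were Myc, at 0.58474 in size, and Rpl36, at 0.581.

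**Figure D2:**
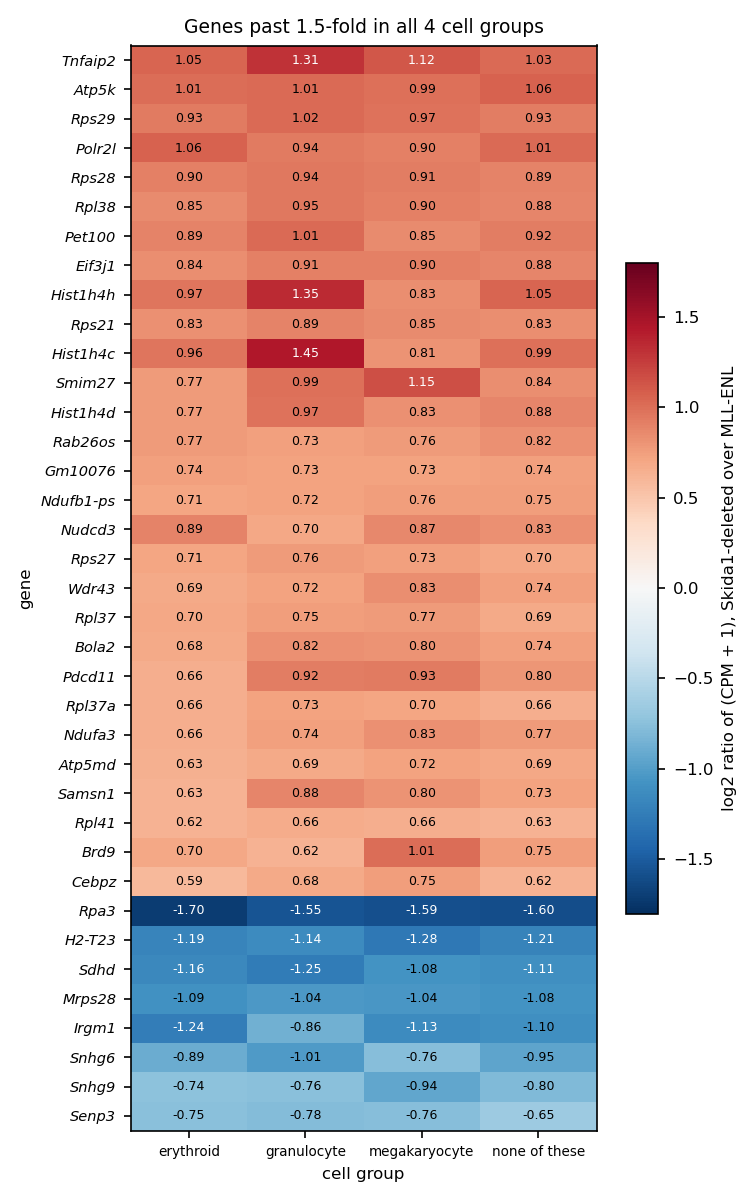
The 29 genes higher and 8 genes lower in all 4 cell groups, as log2 ratios of (CPM + 1) of the Skida1-deleted over the MLL-ENL library. Columns are cell groups, red is higher and blue is lower in the deleted library, and each cell prints its log2 ratio. Rows are ordered by the smallest ratio over the 4 groups, from Tnfaip2 at the top to the lower genes at the foot. All 4 values of a row share their sign, and their spread differs between genes, with Hist1h4c running from 1.79-fold to 2.92-fold and Gm10076 from 1.65-fold to 1.67-fold.

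The lowest of the shared genes was Rpa3 (ENSMUSG00000012483, chr6:8255936-8259141), which encodes the smallest subunit of replication protein A, the complex that coats single-stranded DNA during replication and repair. It had 97.1, 97.0 and 29.1 CPM in erythroid cells (Control, MLL-ENL, Skida1-deleted), 92.5, 81.5 and 27.2 in granulocyte cells, 100.1, 89.6 and 29.1 in megakaryocyte cells and 82.9, 75.2 and 24.1 in cells with none of these. Control lay at or just above MLL-ENL, and the deleted library lay apart from both, between 24.1 and 29.1 CPM. Rpa3 was 3.33-fold [3.202–3.47], 2.998-fold [2.61–3.45], 3.08-fold [2.54–3.74] and 3.12-fold [2.96–3.29] lower in the 4 groups.

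Mitochondrial genes followed among the lower ones. Sdhd (ENSMUSG00000000171, chr9:50596340-50603849), a membrane anchor subunit of succinate dehydrogenase, had 299.7, 253 and 113 CPM in erythroid, 223, 167 and 69.5 in granulocyte, 181, 137 and 64.4 in megakaryocyte and 187, 192 and 88.7 in the remaining cells (Control, MLL-ENL, Skida1-deleted). The deleted library was the lowest of the 3 in every lineage, by 2.24-fold [2.19–2.29], 2.41-fold [2.20–2.63], 2.12-fold [1.85–2.44] and 2.17-fold [2.11–2.23] against MLL-ENL. Mrps28 (ENSMUSG00000040269, chr3:8802146-8923857), a protein of the small mitochondrial ribosome subunit, had 211, 182 and 84.8 CPM in erythroid, 144, 119.7 and 57.8 in granulocyte, 118, 124 and 59.8 in megakaryocyte and 122, 143 and 67.4 in the remaining cells. It was 2.14-fold, 2.07-fold, 2.08-fold and 2.13-fold lower. Of 77, 75, 76 and 77 measured genes of the mitochondrial ribosome in the 4 groups, Mrps28 alone was past the limit downward. Mrpl19 was past it upward in megakaryocyte cells. Of all measured genes 0.545%, 0.776%, 1.01% and 0.433% were past it downward, and 1.68% upward in megakaryocyte cells. At such shares a list of this size holds few or no such members.

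A pair of immune genes was also lower throughout. Irgm1 (ENSMUSG00000046879, chr11:48865245-48871420), an interferon-induced GTPase that acts in the defense against intracellular microbes and in autophagy, had 41.4, 40.9 and 16.8 CPM in erythroid cells (Control, MLL-ENL, Skida1-deleted), 36.1, 24.6 and 13.1 in granulocyte, 28.7, 23.8 and 10.3 in megakaryocyte and 52.7, 36.8 and 16.6 in the remaining cells. Control was the highest and the deleted library the lowest in all 4 groups. The folds against MLL-ENL were 2.44-fold [2.31–2.58], 1.88-fold [1.51–2.34], 2.30-fold [1.63–3.27] and 2.21-fold [2.07–2.36] lower. H2-T23 (ENSMUSG00000067212, chr17:36029977-36032701), a nonclassical MHC class I gene whose product presents leader peptides to natural killer receptors, had 25.1 and 10.4 CPM in erythroid, 74.9 and 33.5 in granulocyte, 90.3 and 36.6 in megakaryocyte and 81.1 and 34.6 in the remaining cells (MLL-ENL, Skida1-deleted). It was 2.41-fold, 2.23-fold, 2.47-fold and 2.34-fold lower, and its reads may be shared with related genes of its family.

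The promoters of these 2 genes are shown because both hold GAAA, any 2 bases and GAAA again, a core of the element through which interferon-regulated factors are known to act. Each window runs from 250 bases before to 50 bases after the annotated start, on the strand of the gene, from RefSeq on GRCm38.p6. Capitals mark every match on either strand. The Irgm1 window is chr11:48871371-48871670 on the minus strand, with 2 matches that overlap, and the H2-T23 window is chr17:36032652-36032951 on the minus strand, with 1 match read on the opposite strand.
Irgm1: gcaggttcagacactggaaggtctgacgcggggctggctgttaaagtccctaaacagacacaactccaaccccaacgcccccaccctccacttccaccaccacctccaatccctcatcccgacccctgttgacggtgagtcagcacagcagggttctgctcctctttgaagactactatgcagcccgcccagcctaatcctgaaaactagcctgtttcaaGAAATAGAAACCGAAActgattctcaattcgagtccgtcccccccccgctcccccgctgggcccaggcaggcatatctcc
H2-T23: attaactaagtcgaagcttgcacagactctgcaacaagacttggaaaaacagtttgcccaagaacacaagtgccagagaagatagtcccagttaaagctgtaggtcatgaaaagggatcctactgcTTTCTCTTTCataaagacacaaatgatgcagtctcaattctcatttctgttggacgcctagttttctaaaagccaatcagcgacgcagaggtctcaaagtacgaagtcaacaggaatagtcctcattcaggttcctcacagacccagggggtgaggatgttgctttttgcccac
The same letters stood in 3.44% of 32851 promoter windows of all genes, and counted by gene in 1079 of 27025. They stood in the windows of 22 of 44 matched genes of the interferon and MHC class I lists. Of the matched genes lower in all 4 groups 2 of 6 held them, and of those higher in all 4, 1 of 22. The 2 lower genes are the 2 shown, which were picked because they hold the letters. A match is a description of the letters and not a bound site. Most interferon-list genes with levels high enough to measure did not differ: Irgm1 was the single one past the limit in erythroid cells (of 9), granulocyte cells (of 15) and cells with none of these (of 17). In megakaryocyte cells (of 15) it was joined by Parp14, an interferon-induced ADP-ribosyltransferase, with 29.2 and 17.8 CPM (MLL-ENL, Skida1-deleted) (1.64-fold lower). Of all measured genes 0.545%, 0.776%, 1.01% and 0.433% were past the limit downward, shares at which lists of this size hold few or no such members. The interferon list's median log2 ratios were −0.06, −0.07, −0.16 and −0.08, beside −0.04, −0.06, −0.02 and −0.01 for all measured genes.

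The remaining lower genes were hosts of small nucleolar RNAs and a SUMO protease. Snhg6 (ENSMUSG00000098234, chr1:9942025-9944118) had 39.1, 98.0 and 52.3 CPM in erythroid, 36.0, 102 and 50.02 in granulocyte, 43.6, 94.98 and 55.5 in megakaryocyte and 43.4, 114 and 58.7 in the remaining cells (Control, MLL-ENL, Skida1-deleted). It was the one lower gene for which Control lay lowest in all 4 groups, so that the deleted library stood between Control and MLL-ENL. Snhg9 (ENSMUSG00000090101, chr17:24719531-24719965) was 1.69-fold, 1.72-fold, 1.96-fold and 1.76-fold lower. Of 14, 13, 13 and 14 measured host genes of small nucleolar RNAs, these 2 were past the limit in each group. Of all measured genes 0.545%, 0.776%, 1.01% and 0.433% were past it downward. The median log2 ratios of the host genes were −0.01, 0.08, 0.02 and 0.01. Senp3 (ENSMUSG00000005204, chr11:69673110-69682084), which removes SUMO from proteins of the nucleolus, had 30.1 and 17.5 CPM in erythroid, 25.8 and 14.6 in granulocyte, 24.1 and 13.8 in megakaryocyte and 25.0 and 15.6 in the remaining cells (MLL-ENL, Skida1-deleted). It was 1.72-fold, 1.77-fold, 1.74-fold and 1.60-fold lower, but in the cells with the lower G2M sums its smallest log2 ratio was −0.15.

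**Figure D3:**
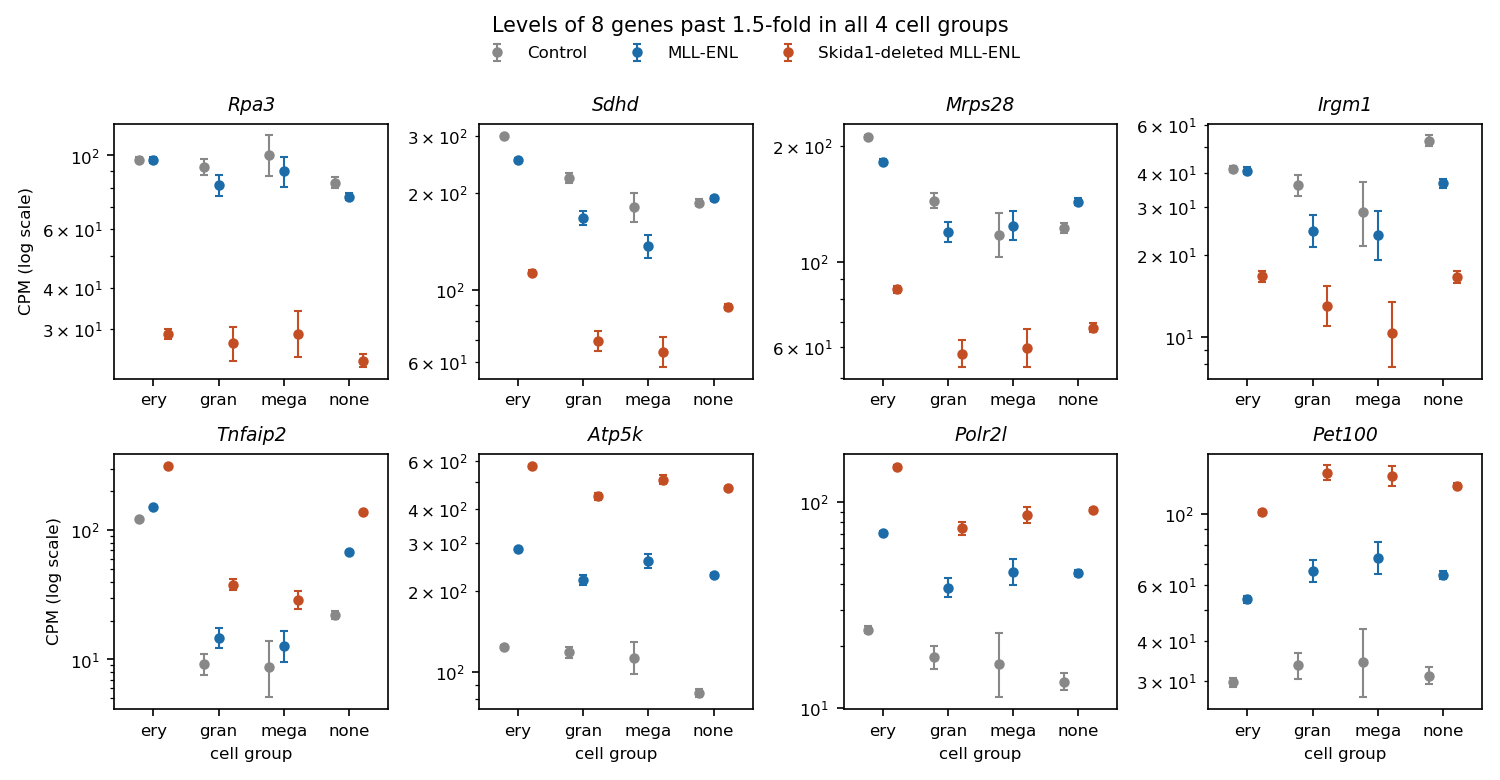
Levels in CPM (log axis) of 8 genes past 1.5-fold in all 4 cell groups, 4 lower above and 4 higher below, with Control in gray, MLL-ENL in blue and the Skida1-deleted library in orange. Cell groups are erythroid (ery), granulocyte (gran), megakaryocyte (mega) and none of these (none), points are 1 library each, and bars are exact 95% Poisson intervals. On the log axis Control lies closer to MLL-ENL than to the deleted library for all 8 genes in every cell group. It lies below both fusion libraries for Tnfaip2, Atp5k, Polr2l and Pet100.

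The 29 higher genes were small in fold, from 1.51 to 2.92 over all groups, and many were short housekeeping genes. Of them 8 encode cytosolic ribosomal proteins, 4 stand on the list of the respiratory chain and ATP synthase and 3 are histone H4 genes. Their median gene span in the annotation was 2554 bases, against 20107.5 bases for all genes measured in 4 groups. The 8 lower genes were short as well, with a median span of 4691 bases. The 29 higher genes lay on 16 chromosomes. For 25 of the 29 Control lay below both fusion libraries in all 4 groups, as it did for 15.9% of all measured genes. For a gene that is higher in the deleted library this requires only that Control lie below MLL-ENL.

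Tnfaip2 (ENSMUSG00000021281, chr12:111442450-111455018), a cytokine-induced gene of the exocyst family that acts in membrane protrusions, led the higher genes. It had 122, 151 and 314 CPM in erythroid cells (Control, MLL-ENL, Skida1-deleted), 9.19, 14.7 and 37.8 in granulocyte, 8.73, 12.8 and 28.9 in megakaryocyte and 22.2, 67.6 and 139 in the remaining cells. The deleted library was the highest in every lineage, by 2.08-fold [2.05–2.12], 2.58-fold [2.11–3.16], 2.27-fold [1.64–3.17] and 2.05-fold [1.98–2.12]. The megakaryocyte value rested on 52 and 151 UMIs. The limit was not met in every group with cells thinned to 5000 UMIs, where the smallest log2 ratio over the groups was 0.11. Nor was it met in every group with the mean over cells in place of the sum (0.15) or without cells of high doublet scores (0.51).

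The higher genes of energy metabolism stood against Sdhd. Atp5k (ENSMUSG00000050856, chr5:108433246-108434399), a small subunit of ATP synthase, had 124, 284 and 573 CPM in erythroid cells (Control, MLL-ENL, Skida1-deleted), 119, 219 and 444 in granulocyte, 113, 257 and 512 in megakaryocyte and 84.0, 228 and 476 in the remaining cells, a step from each library to the next in every lineage. It was 2.01-fold [1.99–2.04], 2.03-fold [1.92–2.14], 1.99-fold [1.86–2.14] and 2.08-fold [2.05–2.12] above MLL-ENL in the deleted library. Pet100 (ENSMUSG00000087687, chr8:3621551-3624235), an assembly factor of cytochrome c oxidase, was 1.87-fold, 2.03-fold, 1.81-fold and 1.91-fold higher. Ndufa3, a subunit of complex I, was 1.58-fold to 1.78-fold higher and Atp5md, another ATP synthase subunit, 1.55-fold to 1.65-fold. Ndufb1-ps (ENSMUSG00000113902, chr12:101968096-101975738), annotated under a pseudogene name of the complex I subunit Ndufb1, was 1.63-fold to 1.69-fold higher. Of 78 measured members of the respiratory chain and ATP synthase, 4 were past the limit upward and Sdhd alone downward in each group, beside 0.869%, 1.46%, 1.68% and 1.09% of all measured genes upward and 0.545%, 0.776%, 1.01% and 0.433% downward, with list medians of −0.04, −0.02, −0.08 and −0.01.

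The genes of RNA synthesis and translation were of the same size. Polr2l (ENSMUSG00000038489, chr7:141471860-141475153), a small subunit shared by the nuclear RNA polymerases, had 24.1, 71.2 and 149 CPM in erythroid, 17.6, 38.5 and 74.7 in granulocyte, 16.4, 45.9 and 86.8 in megakaryocyte and 13.4, 45.2 and 92.3 in the remaining cells (Control, MLL-ENL, Skida1-deleted). It was 2.09-fold, 1.94-fold, 1.89-fold and 2.04-fold higher than in MLL-ENL. Eif3j1 (ENSMUSG00000027236, chr2:122028580-122053632), a subunit of translation initiation factor eIF3, had 194 and 347 CPM in erythroid, 118 and 223 in granulocyte, 107 and 201 in megakaryocyte and 133 and 246 in the remaining cells (MLL-ENL, Skida1-deleted), 1.79-fold to 1.88-fold higher. The 8 ribosomal protein genes were 1.54-fold to 2.03-fold higher. Of 84 ribosomal protein genes measured in all 4 groups these 8 were higher in each, beside 0.679% of all 4274 genes so measured. They were still a minority of their class, whose median log2 ratio was −0.06, −0.04, −0.05 and −0.08. Ribosomal protein genes have many processed copies in the genome, and reads could be shared with them.

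Wdr43 and Pdcd11, which process ribosomal RNA precursors, and Cebpz, a nucleolar factor of ribosome assembly, were higher in each lineage as well. Pdcd11 (ENSMUSG00000025047, chr19:47090735-47131146) had 77.2, 94.5 and 149.8 CPM in erythroid, 55.1, 39.0 and 74.7 in granulocyte, 33.9, 32.6 and 63.0 in megakaryocyte and 41.7, 55.4 and 97.2 in the remaining cells (Control, MLL-ENL, Skida1-deleted). Control lay below MLL-ENL in erythroid and the remaining cells and above it in granulocyte and megakaryocyte cells, and the deleted library stood above both in all 4. The folds were 1.59-fold [1.55–1.63], 1.92-fold [1.69–2.18], 1.93-fold [1.57–2.38] and 1.75-fold [1.69–1.82]. Wdr43 was 1.61-fold to 1.78-fold higher and Cebpz 1.51-fold to 1.69-fold. Of 26, 23, 25 and 26 measured genes on the list of MYC and ribosome biogenesis, 0, 0, 2 and 0 were past the limit upward. The 2 were Polr1a and Rrp12 in megakaryocyte cells. Downward were 1, 1, 0 and 1, Myc in each case. Of all measured genes 0.869%, 1.46%, 1.68% and 1.09% were past it upward and 0.545%, 0.776%, 1.01% and 0.433% downward. The list medians were 0.17, 0.07, 0.24 and 0.21, above those of all measured genes in each group.

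Pdcd11 and Atp5md are neighbors on chromosome 19 whose annotated ends lie 87 bases apart. They are read in opposite directions, and both were higher in every lineage. The stretch between them is shown for this reason, within the RefSeq promoter window of Pdcd11, chr19:47090516-47090815 on the plus strand of GRCm38.p6. Capitals mark the 87 bases between the annotated ends of the 2 genes.
Atp5md and Pdcd11: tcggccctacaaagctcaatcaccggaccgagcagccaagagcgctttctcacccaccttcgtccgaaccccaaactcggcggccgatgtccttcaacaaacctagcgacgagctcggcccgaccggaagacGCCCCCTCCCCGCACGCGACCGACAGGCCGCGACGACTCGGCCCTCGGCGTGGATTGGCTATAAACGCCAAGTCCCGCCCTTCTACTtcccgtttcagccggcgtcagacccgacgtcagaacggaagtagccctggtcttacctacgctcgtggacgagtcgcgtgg
The histone genes Hist1h4h, Hist1h4d and Hist1h4c also lie together, within 166605 bases on chromosome 13. Hist1h4h was 1.97-fold, 2.59-fold, 1.79-fold and 2.09-fold higher in erythroid, granulocyte, megakaryocyte and the remaining cells. Hist1h4c was 1.99-fold, 2.92-fold, 1.79-fold and 2.05-fold higher, and Hist1h4d 1.71-fold, 1.97-fold, 1.78-fold and 1.85-fold. Their coding sequences are nearly alike and most histone transcripts lack a poly(A) tail, so these values are uncertain. In cells with the lower G2M sums the smallest log2 ratio of Hist1h4c was 0.23.

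The other higher genes had varied roles. Nudcd3 (ENSMUSG00000053838, chr11:6105691-6201619), a chaperone partner of the dynein motor, had 53.7 and 100.4 CPM in erythroid, 59.7 and 97.5 in granulocyte, 50.1 and 92.1 in megakaryocyte and 60.2 and 108 in the remaining cells (MLL-ENL, Skida1-deleted). Samsn1, an adaptor that restrains lymphocyte activation, was 1.55-fold, 1.85-fold, 1.76-fold and 1.66-fold higher. Brd9, a bromodomain subunit of a SWI/SNF chromatin remodeling complex, was 1.65-fold, 1.55-fold, 2.05-fold and 1.71-fold higher. Bola2, which takes part in iron-sulfur cluster transfer, was 1.60-fold to 1.77-fold higher, and Smim27, a small membrane protein, 1.75-fold to 2.28-fold. Rab26os, annotated antisense to Rab26, was 1.70-fold to 1.8001-fold higher. Whether reads were counted by strand is not stated. The unnamed model Gm10076 was 1.65-fold to 1.67-fold higher.

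In the granulocyte lineage alone, Dstn was different by the rule. Dstn (ENSMUSG00000015932, chr2:143915331-143943324), which encodes destrin, a factor that disassembles actin filaments, had 217, 192 and 298 CPM in granulocyte cells (Control, MLL-ENL, Skida1-deleted). In erythroid cells it had 187, 206 and 238, in megakaryocyte cells 113, 129 and 146 and in the remaining cells 113, 171 and 191. It was 1.55-fold [1.46–1.64] higher in granulocyte cells against 1.15-fold, 1.13-fold and 1.11-fold in the other groups. With cells rich in late granule genes left out, an alternative chosen after seeing the data, its log2 ratio in granulocyte cells was 0.54 in place of 0.63 and fell short of the limit. It also fell short with the marker cuts at 0.5 of their value (0.49) and in the cells with the lower G2M sums (0.51), and with the cuts at 2 times their value Dstn was not among the 9 genes that met the granulocyte rule.

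In the megakaryocyte lineage alone, 5 genes were higher and 2 lower, each on few UMIs. Fam136a (ENSMUSG00000057497, chr6:86365471-86370058), a mitochondrial protein, had 15.0 and 25.5 CPM in megakaryocyte cells (MLL-ENL, Skida1-deleted) (61 and 133 UMIs), 1.70-fold [1.248–2.34] higher, against 1.15-fold, 1.101-fold and 1.15-fold in erythroid, granulocyte and the remaining cells. Ccdc88c (ENSMUSG00000021182, chr12:100911519-101029351), a regulator of Wnt signaling, had 14.0 and 23.2 CPM (57 and 121 UMIs), 1.66-fold [1.1997–2.31] higher, against 1.02-fold, 1.09-fold and 1.01-fold.

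The other 3 higher genes act on DNA and on ribosomal RNA synthesis. Cdc6 (ENSMUSG00000017499, chr11:98907709-98923942), which licenses replication origins, had 15.0 and 23.9 CPM (61 and 125 UMIs), 1.60-fold [1.17–2.21] higher, against 1.09-fold, 1.12-fold and 1.101-fold. Nbn (ENSMUSG00000028224, chr4:15957587-15992589), a component of the complex that senses DNA breaks, had 24.3 and 38.1 CPM (99 and 199 UMIs), 1.57-fold [1.23–2.02] higher. Polr1a (ENSMUSG00000049553, chr6:71909053-71979435), the largest subunit of RNA polymerase I, had 28.7 and 43.7 CPM (117 and 228 UMIs), 1.52-fold [1.21–1.92] higher. In erythroid, granulocyte and the remaining cells Nbn was 1.07-fold, 0.998-fold and 1.196-fold and Polr1a 1.15-fold, 1.05-fold and 1.203-fold, close to the 1.2-fold limit in the remaining cells, a limit that was set on the ratio of (CPM + 1).

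The lower genes were Mis18a and Dnajb12. Mis18a (ENSMUSG00000022978, chr16:90719312-90727371), which readies centromeres for new CENP-A, had 38.3 and 23.2 CPM in megakaryocyte cells (MLL-ENL, Skida1-deleted) (156 and 121 UMIs), 1.65-fold [1.29–2.11] lower, against 1.195-fold, 1.11-fold and 1.18-fold lower in the other groups. Dnajb12 (ENSMUSG00000020109, chr10:59879583-59899296), a chaperone of the endoplasmic reticulum membrane, had 33.4 and 20.5 CPM (136 and 107 UMIs), 1.63-fold [1.255–2.12] lower, against 1.13-fold, 1.04-fold and 1.05-fold. The rule chose these 8 genes for the gap between 1 group and the other 3, so the gap itself is a description.

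**Figure D4:**
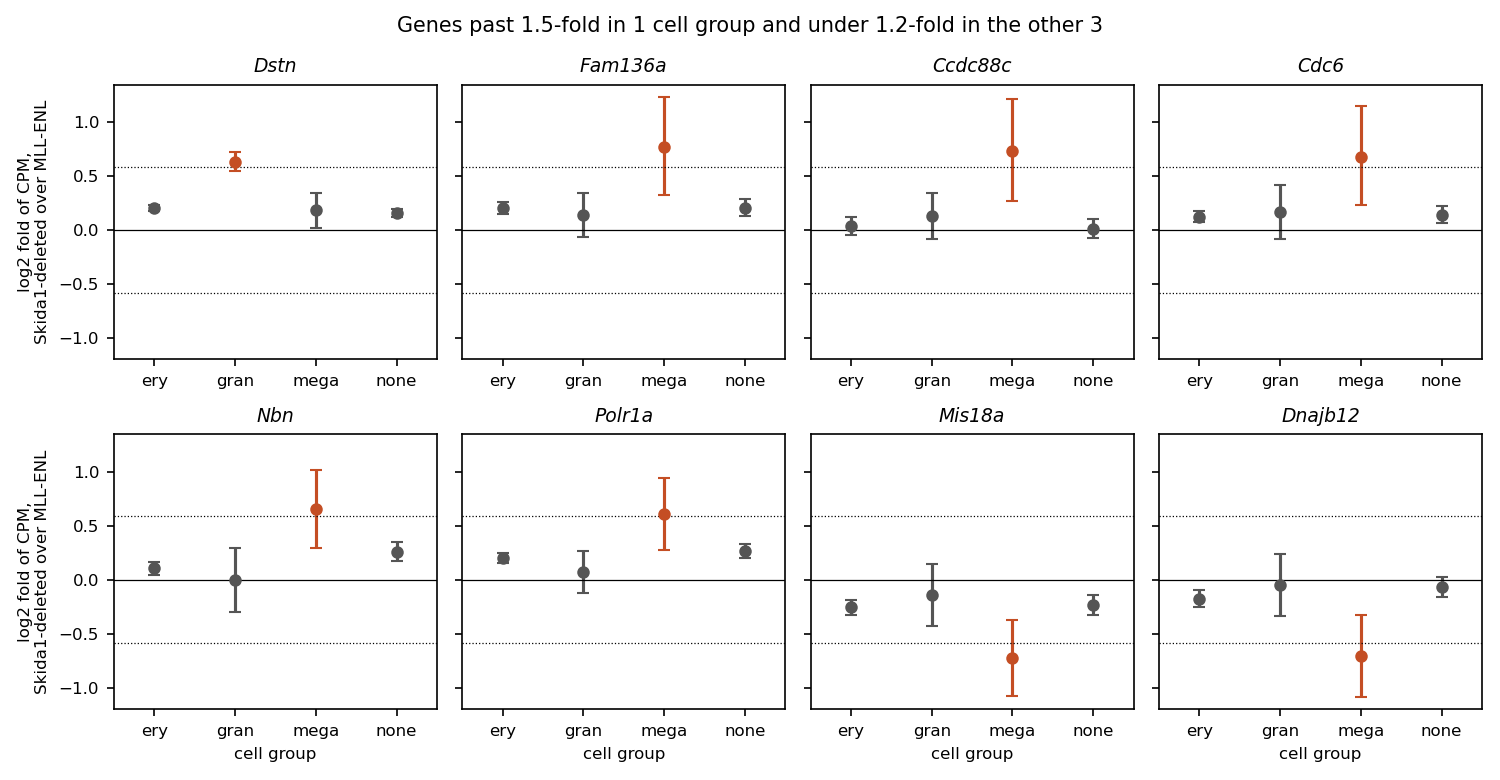
The log2 fold of CPM, Skida1-deleted over MLL-ENL, for the 8 genes past 1.5-fold in 1 cell group and under 1.2-fold in the other 3. Orange marks the group in which the gene was past the limit, dotted lines mark 1.5-fold either way, and bars are exact 95% conditional binomial intervals for counting error. The interval of Dstn in granulocyte cells is narrow, and those of the 7 genes in megakaryocyte cells are wide.

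Membership of the one-lineage class moved with the processing. With all cells thinned to 5000 UMIs, 36 genes met the megakaryocyte rule and 0 of them were among the 7. With the marker cuts at 0.5 of their value 3 genes met it, again with 0 shared, and all 7 fell short of 1.5-fold in megakaryocyte cells, while at 2 times their value 13 met it with 3 shared. The all-lineage class was steadier: 30 of the 37 genes were shared under thinning, 36 with the lower cuts and 34 with the higher cuts.

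Genes measured in a single lineage add a further set, in which another lineage cannot be compared at this level. In the granulocyte group 274 genes were measured there only, of which 16 were higher and 7 lower (8.39%). In the megakaryocyte group 6 of 337 were higher and 8 lower (4.15%), in the cells with none of these 0 of 20 were higher and 1 lower, and in the erythroid group none of 196 was past the limit. Of all measured genes 1.41%, 2.23%, 2.69% and 1.52% were past it in the 4 groups. A gene near 20 CPM can enter this set through the library in which it is higher, which favors large folds. The granulocyte genes include the late granule genes given below, which rested on few cells. The part of both in these shares was not tested. Some of these had the same difference elsewhere below 20 CPM. Npl, which breaks down sialic acid, was past the limit as a megakaryocyte gene with 21.6 and 9.58 CPM (MLL-ENL, Skida1-deleted) (2.25-fold [1.58–3.26] lower), and it was 2.46-fold, 2.35-fold and 2.50-fold lower in erythroid, granulocyte and the remaining cells. Klhdc1, a kelch-domain gene, was 1.88-fold higher in megakaryocyte cells and 1.69-fold, 2.13-fold and 1.69-fold higher elsewhere. Trmt10a, a transfer RNA methyltransferase, was 1.81-fold higher in megakaryocyte cells and 1.45-fold, 1.62-fold and 1.41-fold higher elsewhere. Mterf3, a repressor of mitochondrial transcription, was 1.76-fold lower in granulocyte cells and 1.61-fold, 1.56-fold and 1.54-fold lower elsewhere.

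Lancl2 and Slc35b3 differed by less outside their lineage. Lancl2 was 1.85-fold [1.299–2.67] higher in megakaryocyte cells (46 and 109 UMIs) and 1.1004-fold, 0.852-fold and 1.11-fold in erythroid, granulocyte and the remaining cells. Qrfp, a neuropeptide gene, was 2.17-fold [1.55–3.08] lower in megakaryocyte cells against 0.966-fold, 1.37-fold and 1.56-fold elsewhere, and Slc35b3, a transporter of the sulfate donor PAPS, 1.70-fold [1.26–2.31] lower against 1.19-fold, 1.14-fold and 1.16-fold elsewhere.

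Genes of late neutrophil granules had large folds in granulocyte cells. S100a8 and S100a9 encode calprotectin, and Camp and Ngp encode proteins of the secondary granules. S100a8 (ENSMUSG00000056054) had 153, 76.3 and 732 CPM in granulocyte cells (Control, MLL-ENL, Skida1-deleted), with the deleted library 9.59-fold [8.87–10.4] above MLL-ENL. Camp (ENSMUSG00000038357) had 120.0, 16.5 and 227 CPM, 13.8-fold [11.7–16.4] higher. Ngp (ENSMUSG00000032484) had 47.7, 2.001 and 43.0 CPM, 21.5-fold [13.4–36.6] higher, and S100a9 (ENSMUSG00000056071) had 289, 154 and 948 CPM, 6.16-fold [5.82–6.52] higher. MLL-ENL was the lowest of the 3 libraries for all 4 genes.

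In the cells with none of these the same genes stood the other way. S100a8 had 15.7, 11.98 and 1.15 CPM (Control, MLL-ENL, Skida1-deleted), S100a9 35.0, 19.9 and 1.3004, Camp 12.5, 11.7 and 0.198 and Ngp 14.0, 2.98 and 0.0372, the last on 460, 208 and 3 UMIs. They were 10.4-fold, 15.3-fold and 59.1-fold lower for the first 3 genes and 80.1-fold [27.0–392] lower for Ngp. All 4 genes lay under 20 CPM in both fusion libraries in these cells, as in erythroid and megakaryocyte cells. By the rule they counted as measured in granulocyte cells only, and they enter no class over 4 groups.

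Both differences rested on few cells. Cells with at least 10 UMIs per 10000 of the 4 genes numbered 15 of 499 granulocyte cells in Control, 6 of 524 in MLL-ENL and 20 of 653 in the deleted library. They held 96.6% (MLL-ENL) and 99.4% (Skida1-deleted) of the 4 genes' UMIs in granulocyte cells. Among cells with none of these there were 1, 3 and 0 such cells, and a single MLL-ENL cell held 88.9%, 92.3%, 98.4% and 97.1% of the UMIs of S100a8, S100a9, Camp and Ngp. With granulocyte cells and cells with none of these summed, an alternative chosen after seeing the data, the deleted library was 4.43-fold [4.20–4.69] higher for S100a8, 3.15-fold [3.02–3.29] for S100a9, 2.15-fold [1.997–2.32] for Camp and 1.75-fold [1.49–2.06] for Ngp. Fcnb, ficolin of neutrophil granules, followed them with 9.27, 9.23 and 48.7 CPM in granulocyte cells and 5.28-fold. Stfa2l1, of the stefin family whose members share reads, had 5.49, 1.11 and 20.9 CPM and is uncertain.

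**Figure D5:**
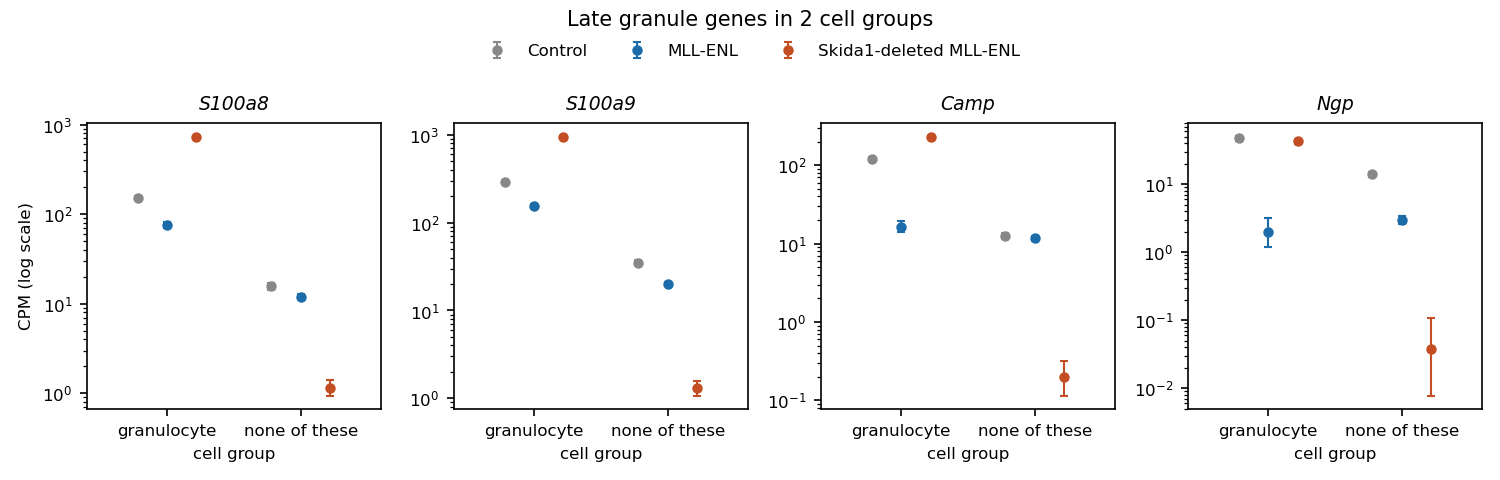
Levels in CPM (log axis) of S100a8, S100a9, Camp and Ngp in granulocyte cells and in cells with none of the lineage markers, with Control in gray, MLL-ENL in blue and the Skida1-deleted library in orange. Points are 1 library each and bars are exact 95% Poisson intervals, which do not cover the small number of cells behind the UMIs. The deleted library lies above MLL-ENL in granulocyte cells and below it in the other group for all 4 genes.

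The 3 eosinophil markers measured in granulocyte cells were higher there in the Skida1-deleted library than in MLL-ENL. The eosinophil list summed to 1.504 and 3.12 UMIs per 10000 in granulocyte cells (MLL-ENL, Skida1-deleted), with 1 of its 9 genes at 0 UMIs in each. The basophil and mast cell list summed to 7.15 and 5.49 there and the monocyte and dendritic cell list to 1.75 and 1.63. Prg2 and Prg3, major basic proteins of eosinophil granules, had 167, 102 and 216 and 30.8, 24.3 and 54.9 CPM (Control, MLL-ENL, Skida1-deleted) (2.13-fold [1.97–2.30] and 2.25-fold [1.92–2.64]), and Epx, eosinophil peroxidase, 6.53, 9.34 and 20.8 CPM (2.23-fold [1.73–2.90]). These intervals do not cover the number of cells that hold the UMIs. In megakaryocyte cells Prg2 was 19.5-fold higher, with 97.3% of its 150 UMIs in 1 cell. Prss34, a basophil protease, was lower in granulocyte cells with 135 and 74.7 CPM (MLL-ENL, Skida1-deleted) (1.803-fold [1.65–1.97]), and Cpa3, a mast cell protease, was 1.38-fold lower there and 1.64-fold lower in the cells with none of these. Ly86, a gene of monocytes and dendritic cells, was 1.71-fold [1.41–2.09] lower. The part of these cell types in the granulocyte differences was not tested.

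Some genes differed in several lineages but not in all by the rule. Myc (ENSMUSG00000022346, chr15:61985341-61990361), the growth regulator, had 162, 176 and 95.2 CPM in erythroid, 142, 128 and 83.8 in granulocyte, 65.2, 59.4 and 39.3 in megakaryocyte and 136, 149 and 87.3 in the remaining cells (Control, MLL-ENL, Skida1-deleted). It was 1.84-fold [1.79999–1.89], 1.53-fold [1.40–1.67], 1.51-fold [1.251–1.83] and 1.71-fold [1.66–1.76] lower, and missed the all-lineage class only through the megakaryocyte group, where the ratio of (CPM + 1) fell just short of 1.5-fold. Car1, carbonic anhydrase of red cells, was 1.51-fold, 1.76-fold and 1.54-fold lower in erythroid, megakaryocyte and the remaining cells, with 23.5 and 23.02 CPM in granulocyte cells (MLL-ENL, Skida1-deleted). Hopx, a homeodomain cofactor of stem cells, was measured in erythroid cells and in those with none of these, with 127 and 75.5 and 54.4 and 29.2 CPM (MLL-ENL, Skida1-deleted) (1.68-fold [1.64–1.73] and 1.87-fold [1.77–1.96] lower).

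Genes of MHC class I presentation lay lower as a list. Of 10, 10, 11 and 10 measured members, 2, 2, 3 and 1 were past it downward and 0 upward in erythroid, granulocyte, megakaryocyte and the remaining cells, beside 0.545%, 0.776%, 1.01% and 0.433% of all measured genes downward. The medians were −0.35, −0.27, −0.26 and −0.38, beside −0.04, −0.06, −0.02 and −0.01 for all measured genes. B2m, the light chain of class I molecules, had 185 and 124 CPM in erythroid, 472 and 323 in granulocyte, 386 and 251 in megakaryocyte and 443 and 299 in the remaining cells (MLL-ENL, Skida1-deleted), 1.49-fold, 1.46-fold, 1.54-fold and 1.48-fold lower. Tap2, of the peptide transporter, was 1.66-fold, 1.57-fold, 1.26-fold and 1.49-fold lower, and Psmb9, of the immunoproteasome, 1.51-fold, 1.354-fold, 1.63-fold and 1.37-fold. These folds are of CPM, and the limit was set on the ratio of (CPM + 1), which Psmb9 missed in erythroid cells.

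Of 11, 17, 17 and 18 measured MLL-fusion targets in the 4 groups, 0 were past 1.5-fold either way, beside 1.41%, 2.23%, 2.69% and 1.52% of all measured genes, shares at which lists of this size hold few or no such members. The medians were 0.03, −0.11, −0.02 and −0.00035. Of 14, 14, 15 and 15 measured genes of Polycomb complexes, 0 were past it, with medians of −0.11, −0.13, 0.03 and −0.01. Kmt2a, the mouse MLL gene, had 53.8 and 50.5 CPM in erythroid, 85.1 and 81.4 in granulocyte, 107 and 118 in megakaryocyte and 92.4 and 93.0 in the remaining cells (MLL-ENL, Skida1-deleted), with folds of 0.940-fold [0.905–0.976], 0.957-fold [0.867–1.06], 1.096-fold [0.968–1.24] and 1.01-fold [0.974–1.04]. Mllt1, the gene of the ENL part, lay at 8.84 to 11.2 CPM in both libraries, under the level that counted as measured.

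The lists of lineage and cell state genes are given as counts, to be read beside 1.41%, 2.23%, 2.69% and 1.52% of all genes past the limit in the 4 groups. Of 15, 12, 10 and 12 measured genes of heme synthesis and iron uptake 0 were past the limit. Of 7, 9, 26 and 13 measured megakaryocyte and platelet genes 0 were past it. Of 26 granulocyte and monocyte effector genes measured in granulocyte cells, 6 were past it upward, against 1.46% of all measured genes, and 0 downward, with a median of 0.07. They were the 4 late granule genes, Fcnb and Cebpe, a regulator of late granulocyte maturation chosen here after its value was seen. Of 8 measured in megakaryocyte cells, Cst7, a cystatin of leukocytes, was past it downward. Of 17, 6, 12 and 12 measured genes on the red cell membrane list, only the carbonic anhydrase Car1 was past it, in erythroid, megakaryocyte and the remaining cells. Of 7, 12, 14 and 15 genes of the stem and progenitor program Hopx was past it in erythroid and the remaining cells. Of 51 genes of the G2M phase, 46, 38, 44 and 40 were measured and 0 were past it, and of 41, 39, 38 and 38 S phase genes Rpa3 alone was lower, with Cdc6 higher in megakaryocyte cells. Mpo, used in the split, had 27.5 and 54.4 CPM in megakaryocyte cells (MLL-ENL, Skida1-deleted). Among 4, 1, 2 and 2 measured globins, Hbb-bt, which shares sequence with other beta globins, was 1.90-fold higher in megakaryocyte cells. Lists of 10 measured heat shock, 4 to 5 p53 target and 5 to 6 cholesterol synthesis genes held 0 past the limit in every group. Of 5 to 12 lymphoid and B-lineage priming genes 0 were past it. The immediate early list (2, 5, 6 and 3 measured) held 1 lower member, Junb in megakaryocyte cells (22.8 and 14.7 CPM).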

How the data were processed

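The deposited files hold raw UMI counts of 32285 genes and 10 antibody tags per barcode, made with Cell Ranger 6.1.2 per the file headers, whereas the submitters' processing notes name 6.0.1 and mm10. None of the sources used here gives doublet removal or other filters by the authors. Per the labels' protocols the libraries are 3' gene expression libraries with feature barcodes. The files list 11910 barcodes with 198773992 gene UMIs in MLL-ENL, 10543 with 207395090 in the Skida1-deleted library and 6091 with 180656900 in Control. The minimum of 5000 UMIs removed 3025, 1320 and 382 barcodes. Genes were placed on GRCm38.p6 by symbol (26331) or synonym (361), and 5593 were not placed.

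UMIs were summed per library and cell group, scaled to CPM, and compared as log2 ratios with a pseudocount of 1, using Python 3.11.15, numpy 2.4.6, scipy 1.17.1 and pandas 2.3.3. No count model or test was run, since each group has 1 library. Sums mix the cell states within a group. Doublets were treated by dropping cells that met 2 cuts, and scores from scanpy 1.11.5 (scrublet) served in 1 alternative. The classification was tested on simulated data. Levels are not compared between genes.

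Named genes were the 12 higher and 12 lower with the largest smallest ratio over the 4 groups, without Rpl, Rps and unnamed models; up to 6 per direction for each single group; up to 3 per direction measured in 1 group only; and up to 3 members of each of 21 gene lists and 12 marker lists. The remaining members of the all-lineage class and Myc, B2m, Tap2, Psmb9, Fcnb, Cebpe, Cst7 and the eosinophil and late granule genes were named after their values were seen. Members and lists were chosen with earlier results of these data known.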

Additional observations from a re-analysis of the deposited data

Results flagged for a closer look

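The late granule genes had log2 ratios of opposite sign in granulocyte cells and in cells with none of the lineage markers. In the latter all 4 lay under 20 CPM in both fusion libraries, so they do not count as measured there, and no gene counted as different in opposite directions. The log2 ratios of the Skida1-deleted over the MLL-ENL library were 3.25 and −2.59 for S100a8, 2.61 and −3.18 for S100a9, 3.71 and −3.41 for Camp, and 3.87 and −1.94 for Ngp, in that order of groups. With 1 library per group the difference between the groups was not tested. A signal also appeared outside the autosomal comparison: the Y-linked gene Ddx3y stood at 57.2 CPM in kept cells of the Skida1-deleted library and at 0 UMIs in MLL-ENL and Control.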

How the results depend on the processing

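Counts of genes were recomputed under 19 alternatives, values of single genes under 13 and the surface tags under 5. No single-gene value changed sign. The all-lineage class of 37 genes numbered 32 to 44 under the alternatives other than the fold and level limits given next. At a fold limit of 1.3 there were 275, 433, 601 and 317 genes past the limit in erythroid, granulocyte, megakaryocyte and the remaining cells, 125 in all 4, and 2, 47, 119 and 1 in 1 group only. At a limit of 2 there were 10, 24, 14 and 10, with 5 in all 4 and 0 in granulocyte or megakaryocyte cells only. The balance of higher and lower genes turned there, to 4 and 6 in erythroid cells, 4 and 10 in megakaryocyte cells and 1 and 4 in all 4. It also turned for megakaryocyte cells only from 2000 UMIs (3 and 4) and with a pseudocount of 5 (1 and 2), and for granulocyte cells only under 6 alternatives. With genes from 5 CPM and 30 UMIs the counts were 111, 308, 466 and 139, with 1 in opposite directions and 1, 15 and 92 in erythroid, granulocyte or megakaryocyte cells only. From 100 CPM they were 41, 49, 39 and 42, with 22 in all 4 and 0 in megakaryocyte cells only. Thinning to 5000 UMIs gave 214 in granulocyte cells and 5, 13 and 36 in erythroid, granulocyte or megakaryocyte cells only. Scaling without globin, mitochondrial and ribosomal protein genes gave 238 in megakaryocyte cells and 1, 4 and 33 in these groups only. Marker cuts at 2 times gave 191 in granulocyte cells and 1, 9 and 13 in these groups only, and cuts at 0.5 gave 1, 0 and 3. The mean over cells gave 5, 2 and 14, and cells below the median G2M sum 1, 7 and 42 with 1 in opposite directions. In granulocyte and megakaryocyte cells only, the counts were 5 and 11 from 10000 UMIs, 4 and 11 under 5% mitochondrial UMIs, 4 and 13 without high doublet scores, 3 and 3 with a pseudocount of 5, and 0 and 1 with a ceiling of 1.1-fold for the other groups. With a looser ceiling for the other groups, 1, 9 and 16 were in erythroid, granulocyte or megakaryocyte cells only. Granulocyte cells only had 3 from 2000 UMIs and 0 without late granule cells, the last an alternative chosen after seeing the data. With a pseudocount of 5 the log2 ratio of Skida1 was −0.47 in erythroid cells and −1.18 in the remaining cells, in place of −1.41 and −2.34, by the construction of that setting. Of the surface tags, 11 of 40 values were past 1.5-fold, with 18 from 2000 UMIs, 3 from 10000 and 4 with cuts at 0.5. Other causes were not tested.

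Of the one-lineage genes, Cdc6 had a log2 ratio of 0.06 below the median G2M sum and Nbn 0.21 under thinning. Thinning and the G2M split leave the megakaryocyte group fewer UMIs, with 3803 and 4458 genes measured in place of 5470. No paired analysis was possible because each group has 1 library.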

Other observations

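The surface tags gave a readout that neither the split nor the RNA classes used. CD48 and CD117, which took most of the tag counts, differed little between the fusion libraries: the median share of CD48 was 58.1% and 59.8% (MLL-ENL, Skida1-deleted) in erythroid cells, 67.6% and 65.6% in granulocyte, 57.7% and 60.8% in megakaryocyte, and 70.2% and 73.7% in the remaining cells. CD41, the platelet integrin, had a median of 388.5 and 378 counts in megakaryocyte cells, and the Fc receptor tag CD16_32 had 271 and 259 in granulocyte cells. Of 40 ratios of median share (10 tags in 4 groups), 11 were at least 1.5-fold lower in the deleted library and 0 higher. All 11 belonged to the tags CD201, CD127, CD135 and CD16_32 outside granulocyte cells, with medians between 3 and 24 counts per cell in these groups. These are ratios of shares and rest on small counts. In erythroid cells the median counts were 4 and 3 for CD201 and 5 and 4 for CD127 (MLL-ENL, Skida1-deleted). They were 7 and 4 for CD135 and 21 and 15 for CD16_32. The median total of tags per cell was 1542 and 1680 in erythroid, 3094 and 2828 in granulocyte, 2391 and 2426 in megakaryocyte and 2395 and 2452.5 in the remaining cells.

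In the cells with none of the lineage markers the B cell marker list summed to 1.896, 0.925 and 0.543 UMIs per 10000 (Control, MLL-ENL, Skida1-deleted), the T and NK cell list stood at 0.444 and 0.440 (MLL-ENL, Skida1-deleted), and 0 of 12 measured lymphoid and B-lineage priming genes passed the limit. Ighm, the heavy chain of IgM, had 56.7, 24.9 and 15.6 CPM (Control, MLL-ENL, Skida1-deleted), 1.60-fold [1.48–1.72] lower than in MLL-ENL. It was the one gene measured in that group only that passed the limit.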
